A study of Bos taurus with 90 samples.

Results

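The oocytes of 10 bovine antral follicles classed as healthy were compared with those of 17 other follicles, to ask whether the health of a follicle, as read from its wall, is also seen in the transcriptome of the oocyte it encloses. These 27 oocytes are those of the retained follicles among 30 oocytes and 90 libraries in all. Each follicle gave a bulk library of mural granulosa cells (MGCs), which line the follicle wall, a library of pooled cumulus cells (CCs), which surround the oocyte, and a library of the single denuded oocyte. Small follicles gave 3 healthy and 6 other oocytes, medium follicles 3 and 5, and large follicles 4 and 6. The oocytes of 3 follicles that the study removed on mapping rate and mitochondrial content were left out.

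Healthy follicles were those in which the MGCs had high FSHR, the receptor of follicle-stimulating hormone, and low levels of genes linked to atresia, among them FAS, which encodes a death receptor. Another 2 follicles with that pattern were placed among the others by the study because of raised apoptosis genes in the MGCs. All other retained follicles make up the second set, and both sets had passed a check of gross morphology before sequencing. The split into healthy and other follicles used no oocyte count, though a removed follicle was left out for the mitochondrial share of its oocyte. The split did use MGC expression, and MGC values are therefore given here as a description only. The follicles came from Bos taurus ovaries collected at a slaughterhouse, from at least 5 animals in several batches. Animal, age and cycle stage are not given for each follicle, so oocytes of the same animal may be present and p-values measure the spread between these oocytes. The first 3 digits of the follicle identifier, whose meaning the labels do not give, took 11 values over the 27 follicles. Only 4 of them held both sets, with 4 healthy oocytes, all of large follicles, and 8 others. The 3 healthy small oocytes shared 1 prefix that no other oocyte had, and the healthy medium oocytes had prefixes without any of the other set. Health and prefix therefore cannot be told apart in small or medium follicles.

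In the growing antral follicle the oocyte is arrested in meiotic prophase and holds the messenger RNA that it has stored for maturation and the first divisions of the embryo. It exchanges small molecules with the cumulus cells through gap junctions and signals to them through secreted growth factors. Atresia, the degeneration of follicles that will not ovulate, is known to begin in antral follicles with the death of mural granulosa cells, while the cumulus cells and the oocyte are affected later.

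The files list genes by Ensembl identifier alone and no table used here pairs those identifiers with symbols. The roles of single genes are therefore not given, and the known oocyte, granulosa and cumulus markers could not be checked by name. In their place, gene groups were formed from the levels of the 3 cell types, without the health labels. A group of 637 oocyte-enriched genes had a mean of at least 5 on the log2(CPM + 1) scale in oocytes, and a mean at least 4 log2 units, or 16-fold, lower in both MGCs and CCs. CPM is the count of a gene scaled to the total of its library (counts per 1000000). These genes took between 22.1% and 26.4% of the counts of each of the 27 oocytes, against at most 0.361% in MGCs and 0.421% in CCs (26 pools). A group of 324 somatic genes, at least 16-fold higher in both MGCs and CCs, took between 0.101% and 0.193% of the counts of each oocyte, against medians of 11.1% in MGCs and 17.6% in CCs. All 27 libraries labelled oocyte thus had the profile that sets oocytes apart, and the groups were defined on these same libraries.

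Total counts ran from 8442938 to 53173320 per oocyte, with a median of 30866216. The 4 oocytes with the fewest genes detected stood apart from the other 23. They were other small replicates 2, 5 and 6 with 13037, 10588 and 12026 genes with a count, and healthy large replicate 3 with 11861 genes. The next oocyte, healthy large replicate 2, had 14427. Low detection was therefore present in both sets, and the main values are also given without these 4 oocytes.

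No gene was called between the oocytes of healthy and other follicles. With stage as a block, edgeR's quasi-likelihood test called 0 of 13305 genes (0%) at an adjusted p under 0.05 and a fold change above 2, and the smallest adjusted p was 0.9996. DESeq2, run on the same counts, also called 0, with a smallest adjusted p of 0.318. Without the threshold for multiple tests, 219 genes (1.65%) had a p under 0.05, of which 62 were higher and 157 lower in healthy oocytes. Of these, 24 genes (0.18%) also differed more than 2-fold, 15 of them higher and 9 lower. DESeq2 gave 59 such genes, 31 higher and 28 lower. The median log2 fold change over all genes tested was -0.01, and the median size of the change was 0.17 against a median standard error of 0.32.

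**Figure D1:**
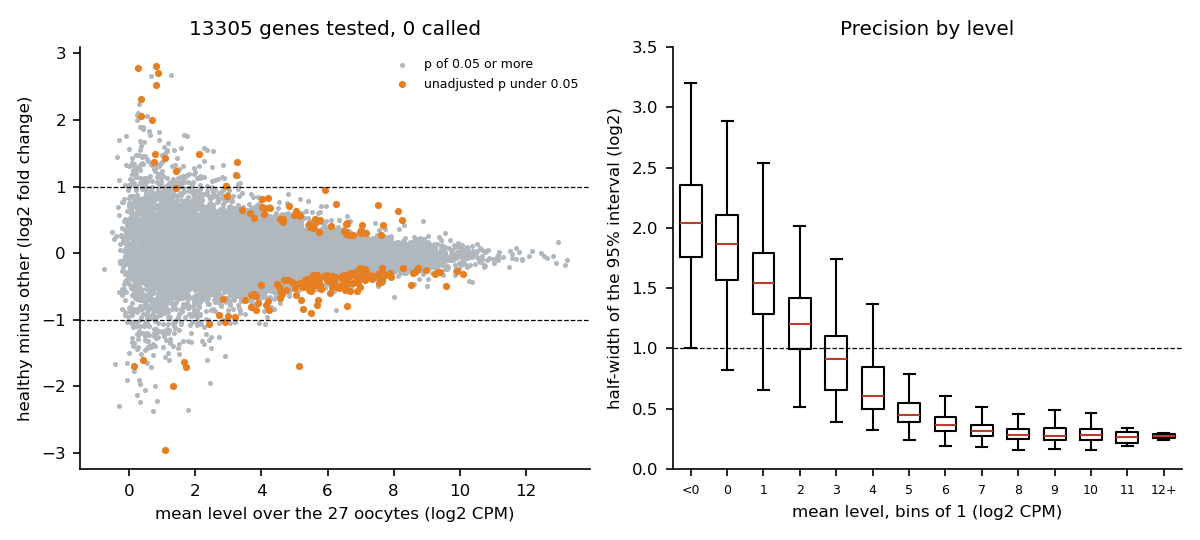
Left, the log2 fold change (healthy minus other) of the 13305 genes tested against the mean level over 27 oocytes (log2 CPM), with orange points at an unadjusted p under 0.05 and dashed lines at a fold change of 2. Right, the half-width of the 95% confidence interval of that fold change for genes in bins of 1 log2 CPM (box, quartiles; whiskers, 1.5 times the quartile range; outliers not drawn), where the dashed line marks 2-fold. Most changes beyond 2-fold lay among genes of low level, where the intervals are wide.

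The absence of calls carried different weight for different genes. The 95% confidence interval of the change lay wholly within 2-fold in either direction for 7411 of the 13305 genes (55.7%), and within 4-fold for 87.0%. Among the 3518 genes with a mean level of 6 or more in log2 CPM, 3477 (98.8%) had an interval within 2-fold. Of 5531 genes with a mean from 3 to 6, 66.6% did so. Among the 4256 genes with a mean under 3, only 5.90% had such an interval, so 2-fold differences in most genes of low level were not detectable with these oocytes. The precision was lower within single stages, where an interval within 2-fold was found for 24.6% of genes among small, 28.1% among medium and 32.5% among large follicles.

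The genes that distinguish the oocyte from its surrounding cells differed little between the sets. All 637 oocyte-enriched genes were tested, none was called, and each had a fold change under 2. Their median log2 fold change was -0.04, their 10th and 90th percentiles were -0.26 and 0.17, and 611 (95.9%) had an interval within 2-fold. At an unadjusted p under 0.05, 8 were higher and 19 lower, which is 4.24% of the group beside 1.65% of all genes tested. Both lie under the share of 0.05 that this threshold passes on average where nothing differs. Whether the group differs from all genes tested in this share, or in its balance of higher and lower genes, was not tested. The 712 genes at a mean of at least 5 in each cell type and within 1 log2 unit between them had a median log2 fold change of -0.03, with 1 gene higher and 15 lower at that unadjusted p. Among them, 698 (98.0%) had an interval within 2-fold. The 100 genes most abundant in oocytes had a median of -0.04, and 99 of them had an interval within 2-fold.

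In the somatic group only 195 of 324 genes were tested, because the other 129 did not reach a CPM above 1 in 10 oocytes. Their median log2 fold change was 0.16 and 123 of 195 (63.1%) had a positive sign, against 47.7% of all genes tested. A single gene had an unadjusted p under 0.05, and none was called. As a share of an oocyte's counts, the 324 genes took 0.169%, 0.145% and 0.158% in the 3 healthy small oocytes. In the 6 other small oocytes the share was lowest at 0.104%, had a median of 0.122% and was highest at 0.139%. These small sets did not overlap, and without the 3 small oocytes of low detection the others were at 0.108%, 0.138% and 0.139%. In medium follicles, the healthy oocytes were at 0.143%, 0.162% and 0.162%, within the range of 0.124% to 0.189% of the others. Large healthy oocytes ranged from 0.131% to 0.193% and the others from 0.101% to 0.180%, so these overlapped too. The group was formed after a first look at these values and no test was run on it. Whether RNA of attached somatic cells had a part in any difference between the sets was not tested.

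Single oocytes differed from each other more than the sets did. The healthy oocytes had 15155 ± 1416 genes detected (SD, n = 10) and the others 14834 ± 1517 (SD, n = 17). Within stages the weighted difference was 227 genes (exact permutation test within stages, two-sided, p = 0.684, adjusted p = 0.855 over 5 measures compared). The total count per oocyte differed by 0.01 in log10 (exact permutation test, p = 0.905, adjusted p = 0.905). The likeness of an oocyte to its stage was taken as the median Spearman rho between its log2(CPM + 1) values and those of each other retained oocyte of the stage. It was 0.926 ± 0.022 in healthy (SD, n = 10) and 0.915 ± 0.039 in other oocytes (SD, n = 17), with a weighted difference within stages of 0.008 (exact permutation test, p = 0.438, adjusted p = 0.729). The 4 oocytes of low detection had the lowest values, from 0.815 to 0.880, and without them the difference was 0.005 (exact permutation test, p = 0.295).

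**Figure D2:**
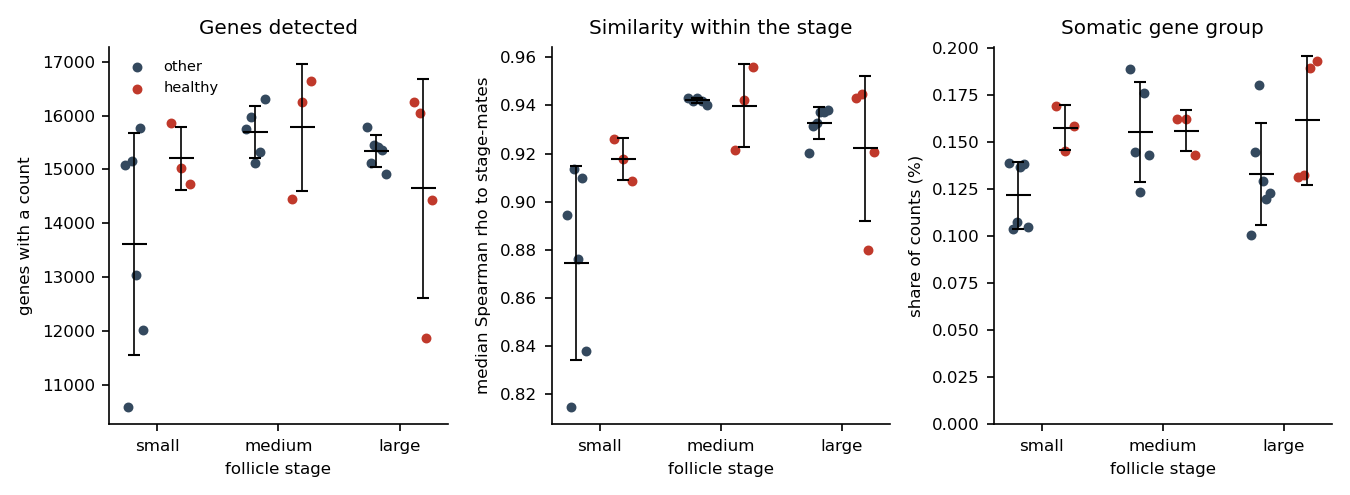
Number of genes with a count, median Spearman rho to the other retained oocytes of the stage, and share of counts in the 324 somatic genes (%), each for the 27 oocytes by follicle stage. Points are oocytes (blue, other; red, healthy), and bars give the mean and SD. The sets overlap in each panel and stage except for the somatic share in small follicles, and the oocytes of low detection are 3 other small oocytes and 1 healthy large oocyte.

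The whole profile gave a like picture. Of the squared distance between oocytes of the same stage, summed over the 13305 genes on the log2(CPM + 1) scale, 13.4% lay between the healthy and other sets. The mean over all 987840 arrangements of the labels within stages was 12.4% (exact permutation test, one-sided, p = 0.219, adjusted p = 0.548). Without the 4 oocytes of low detection the share was 15.4% (exact permutation test, p = 0.406). By stage it was 13.7% for small, 13.5% for medium and 12.8% for large follicles. In the MGCs of the same follicles, whose expression had chosen the sets, it was 29.8% over the 13140 genes tested there. By stage it was 24.9%, 52.5% and 16.5%. In CCs it was 20.7% over 26 pools and the 12129 genes tested there, with 24.6%, 26.6% and 10.6% by stage. The CC share of large follicles was thus below that of the oocytes. The genes used differ between the cell types, and no mean over arrangements was taken for MGCs or CCs. The CC pool of other small replicate 4 was left out of that value, of the forming of the gene groups and of each other CC value given here. It holds counts for few genes.

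Follicle diameter, which the choice of sets did not use, averaged higher in healthy follicles. Diameters were 3.5 to 3.7 mm in healthy and 3.1 to 3.8 mm in other small follicles, 6.7 to 7.0 mm and 6.2 to 7.0 mm in medium follicles, and 10.2 to 11.6 mm and 9.6 to 11.2 mm in large follicles. The weighted difference within stages was 0.486 mm (exact permutation test, two-sided, p = 0.0214, adjusted p = 0.107 over the same 5 measures), and it did not pass the threshold after adjustment. With the diameter as a covariate beside stage, edgeR still called 0 genes.

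The spread between oocytes of a set was compared within stages and was larger among the others in small follicles. Over 9049 genes with a mean log2 CPM of 3 or more, the median SD between other small oocytes was 0.72 on the log2(CPM + 1) scale (n = 6), against 0.31 between healthy small oocytes (n = 3), and 90.3% of the genes had the larger SD in the others. Without the 3 small oocytes of low detection, it was 0.51 against 0.31 and 72.5% of the genes. In medium follicles the median SD was 0.37 in other and 0.35 in healthy oocytes, and in large follicles 0.44 and 0.42. Without the 1 large oocyte of low detection, a healthy one, the large values were 0.44 and 0.34, and 63.8% of the genes had the larger SD in the others, against 50.3% with it. Genes are not independent replicates and no test was run on these values. At equal spread the median SD of a smaller set also tends to come out lower, and this was not corrected. The 3 healthy small oocytes also shared their identifier prefix, and the part of that prefix in their likeness was not tested.

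Within each single stage edgeR called 0 genes, and the smallest adjusted p was 0.118 for small, 0.9998 for medium and 0.9996 for large follicles. At an unadjusted p under 0.05 with a fold change above 2, there were 312 genes (2.34%) in small follicles, 143 higher and 169 lower in healthy oocytes. Medium follicles had 28 such genes (0.21%), 18 higher and 10 lower, and large follicles 107 (0.804%), 33 higher and 74 lower. DESeq2 called 25 genes in small follicles (0.188%), 7 higher and 18 lower, none in medium and 1 lower gene in large follicles. Of its 25 genes in small follicles, 24 had an unadjusted p under 0.05 in edgeR, beside 692 of all 13305 genes tested. The sets did not overlap for 13 of them, beside 3.10% of all genes tested. DESeq2 had picked these genes on the same 9 oocytes, so neither count is separate support. A mean level under 3 in log2 CPM was found for 14 of the 25. In 12, more than 50% of the CPM summed over the 9 small oocytes came from 1 oocyte.

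Fold changes of the same gene had little correspondence between stages. The stages hold different oocytes, so their fold changes rest on separate samples. Across the 9049 genes, the log2 fold changes of small and medium follicles had a Spearman rho of -0.03, those of small and large follicles -0.17, and those of medium and large follicles -0.06. The sign was shared by 48.6%, 45.0% and 49.3% of the genes. The test of a difference of the health contrast between stages called 0 genes in edgeR, with a smallest adjusted p of 0.740 and 434 genes (3.26%) at an unadjusted p under 0.05. DESeq2 called 4 genes in that test.

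Expression ranges separated the sets for few genes. In small follicles the CPM of all 3 healthy oocytes lay above that of all 6 others for 349 genes and below it for 64. Together these were 3.10% of the genes tested. In medium follicles 241 genes were above and 152 below (2.95%), and in large follicles 52 above and 53 below (0.789%). Sets of this size also separate for some genes by chance. That share was not computed, so these counts are a description and are not read as a difference between the sets. The 6 small others include 3 oocytes of low detection, and the counts were not taken without them. In 2 or more stages, 8 genes lay above and 1 below, and in all 3 stages none did. No gene had a CPM above 1 in all 10 healthy oocytes and in none of the 17 others, or the reverse. All 27 oocytes had a CPM above 1 for 7273 of the 13305 genes (54.7%).

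The levels in each oocyte are given for 4 identifiers as examples, not as called genes. They are the ones with the smallest p in each direction over all stages, the one with the smallest p for the difference between stages and the one with the smallest p among falls in small follicles, each at a mean log2 CPM of 3 or more. They were picked on these same oocytes. Sets that do not overlap, or the order within pairs of these oocytes, are therefore not separate support. ENSBTAG00000010581 had the smallest p of the genes with lower levels over all stages. Its CPM was 24.1, 22.7 and 18.4 in the healthy small oocytes, while the others ran from 32.3 over a median of 60.7 to 83.8, with no overlap. In medium follicles the healthy oocytes were at 35.9, 44.6 and 30.5, and the others at 43.8, 29.5, 70.5, 42.2 and 53.1, which overlap. The large healthy oocytes were at 45.3, 17.5, 21.4 and 38.2, and the large others ran from 29.3 over a median of 57.5 to 71.2, which also overlap. Over all stages ENSBTAG00000010581 had 29.9 ± 10.6 CPM in healthy (SD, n = 10) and 53.3 ± 15.9 in other oocytes (SD, n = 17). Its log2 fold change was -0.90 ± 0.22 (SE; 95% interval -1.34 to -0.45), with an unadjusted p of 0.000269 and an adjusted p of 0.9996 in edgeR's quasi-likelihood test. In the 3 pairs of a healthy and an other large oocyte that share an identifier prefix, the healthy oocyte was lower in each: 38.2 against 60.5, 21.4 against 29.3 and 17.5 against 62.7 CPM. With the prefix as a covariate beside stage the log2 fold change was -0.65 (unadjusted p = 0.121 in edgeR). That fit draws health only from the 4 prefixes that held both sets, whose healthy oocytes are all of large follicles. Its value is therefore not one over all stages. In large follicles without the prefix the log2 fold change was -0.80 ± 0.32 (SE).

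ENSBTAG00000016355 had the smallest p among the genes with higher levels. Its CPM in the healthy small oocytes was 317, 283 and 505, against 120 to 424 with a median of 169 in the others. In medium follicles the healthy oocytes were at 141, 321 and 315, and the others at 195, 105, 82.5, 78.5 and 67.6. The sets overlapped in small and medium follicles, and in large follicles too, where the healthy oocytes ranged from 88.8 to 175 and the others from 71.2 to 177. The log2 fold change of ENSBTAG00000016355 over all stages was 0.73 ± 0.23 (SE; 95% interval 0.25 to 1.201), with an unadjusted p of 0.00402 and an adjusted p of 0.9996. The healthy oocyte was higher in 2 of the 3 pairs that share a prefix. With the prefix as a covariate the log2 fold change was 0.29 (unadjusted p = 0.515 in edgeR), where health again rests on healthy oocytes of large follicles alone. In large follicles without the prefix the log2 fold change was 0.38 ± 0.37 (SE). With the diameter as a covariate the log2 fold change over all stages was 1.02.

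Another pair of identifiers had its largest differences in small follicles. ENSBTAG00000040202 was listed in MGCs with at most 0.0646 CPM and in CCs with at most 0.924 CPM, while its mean level ranked 300 among the genes tested in oocytes. In the healthy small oocytes it had 1637, 2418 and 2086 CPM, and in the others 394, 436, 727, 160, 250.5 and 393, with no overlap. The medium healthy oocytes lay at 159 to 182 CPM and the medium others at 176 to 911. Large oocytes lay at 102 to 202 in the healthy and 98.4 to 352 in the other set, so the healthy small oocytes had the highest levels of all 27. The log2 fold change of ENSBTAG00000040202 was 2.26 ± 0.46 (SE) for small, -1.27 ± 0.51 for medium and -0.07 ± 0.43 for large follicles. The adjusted p in small follicles was 0.150 in edgeR and 0.00124 in DESeq2, and that of the difference between stages was 0.740 in edgeR.

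ENSBTAG00000012485 was lower in the healthy small oocytes, at 26.5, 24.4 and 38.6 CPM, than in the others, at 65.1, 75.5, 71.7, 124, 105 and 125 CPM, with no overlap. In medium follicles the healthy oocytes had 29.4, 73.5 and 92.7 CPM, and the others 72.3 to 127. In large follicles the healthy oocytes had 82.4 to 136 CPM and the others 57.6 to 104. The log2 fold change of ENSBTAG00000012485 was -1.77 ± 0.34 (SE) for small, -0.47 ± 0.33 for medium and 0.34 ± 0.28 for large follicles. Its adjusted p in small follicles was 0.118 in edgeR and 3.21e-05 in DESeq2, and that of the difference between stages was 0.740 in edgeR. The small values of both genes rest on 3 healthy oocytes of 1 identifier prefix, and the part of the prefix in them cannot be told apart from that of health. In medium follicles, too, prefix and health cannot be told apart.

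**Figure D3:**
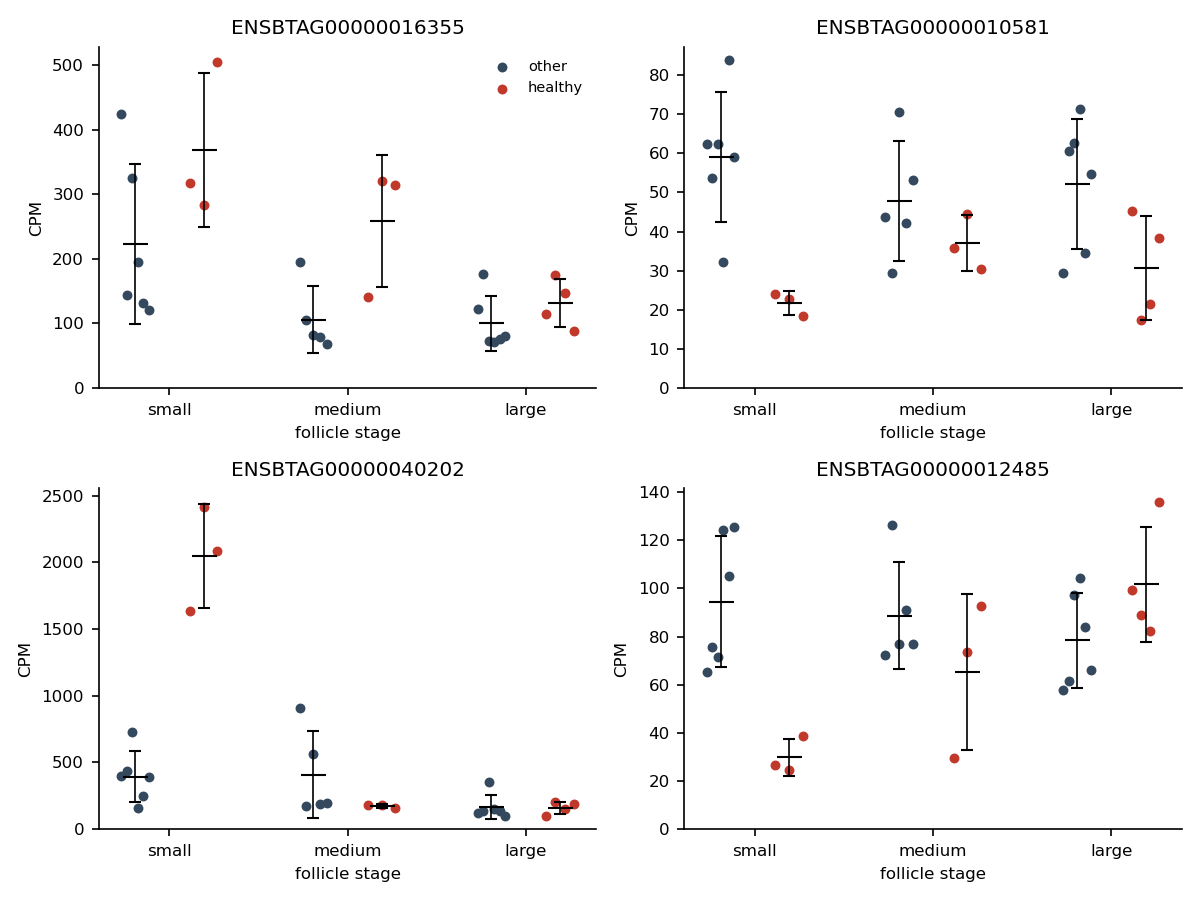
CPM of the 4 identifiers described above in each of the 27 oocytes, by follicle stage (blue, other; red, healthy; bars, mean and SD). In small follicles the sets do not overlap for ENSBTAG00000010581, ENSBTAG00000040202 and ENSBTAG00000012485, and in medium and large follicles the sets overlap for all 4.

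The genes that differed between the MGCs of these follicles had a median change near 0 in the oocytes. In MGCs, whose expression had chosen the sets, 301 genes were higher (2.29%) and 890 lower (6.77%) in healthy follicles of 13140 tested, and 5440 (41.4%) had an unadjusted p under 0.05. Of the 301 genes, 249 were tested in oocytes. Their median log2 fold change was 1.202 in MGCs and 0.00 in oocytes, and 125 of the 249 (50.2%) were positive in oocytes. None was called there, and 155 (62.2%) had an interval within 2-fold. An unadjusted p under 0.05 was found for 4 (1.61%), beside 1.65% of all genes tested. Of the 890 lower genes, 586 were tested in oocytes, with a median of -1.40 in MGCs and -0.00 in oocytes. In oocytes none of them was called, 7 (1.2%) had an unadjusted p under 0.05, and 238 (40.6%) had an interval within 2-fold. Of all genes tested, 55.7% had such an interval. By stage, the medians of the 249 genes in oocytes were -0.16, 0.04 and 0.03 in small, medium and large follicles, and those of the 586 genes 0.10, -0.02 and -0.14.

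**Figure D4:**
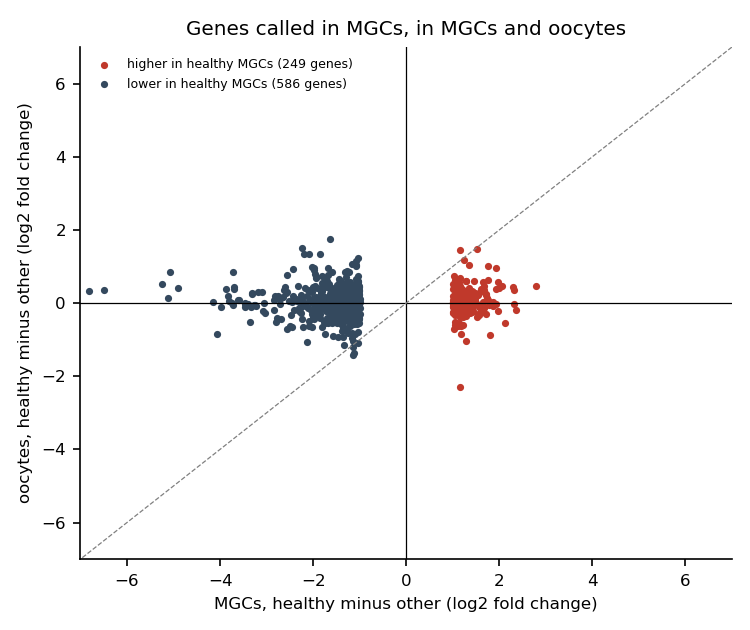
Log2 fold change (healthy minus other) in MGCs (x axis) and in oocytes (y axis) of the genes called in MGCs and tested in oocytes, 249 higher (red) and 586 lower (blue) in healthy MGCs. On the dashed line the change would be the same in both cell types. The MGC values chose the sets of follicles and are all beyond 1 by the threshold, and the oocyte values lie around 0.

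In CCs of the same follicles edgeR called 0 of 12129 genes, with a smallest adjusted p of 0.0674 and 1631 genes (13.4%) at an unadjusted p under 0.05, and DESeq2 called 201 (1.66%). The CC medians of the genes higher and lower in healthy MGCs were 0.03 and -0.08. The variation between follicles within a set, as the common biological coefficient of variation of the edgeR fit, was 0.740 in oocytes, 0.653 in CCs and 0.504 in MGCs. The library methods of the cell types differ, and the difference of the health contrast between cell types was not tested.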

How the data were processed

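Per the paper, the authors trimmed paired-end reads, used STAR with the bovine assembly ARS-UCD1.2, kept uniquely mapping reads and counted them over exons with featureCounts. The submitters' processing notes name HISAT2 2.2.1 instead, and which made the deposited table was not settled. The deposited values are counts per gene, 27270 in all, without normalization. Oocytes and CCs were amplified by SMART-seq2 without molecular identifiers, so counts are not single molecules. In oocytes a median of 66.1% of counts from 1 to 20 were even, as where both mates of a pair are counted, and precision is lower than the totals imply.

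Genes over 1 CPM in 10 or more of the 27 oocytes were tested with edgeR 4.0.16 in R 4.3.3 (TMM, glmQLFit, glmQLFTest, stage as a block, Benjamini-Hochberg adjustment), after a check on simulated counts, and with DESeq2 1.42.0. Intervals are at 95%. Permutation tests, groups and plots used Python 3.11.15, numpy 2.4.6, scipy 1.17.1, pandas 2.3.3 and matplotlib 3.10.9. Alternatives were other filters, size factors, covariates and samples. The follicle sets, gene groups and tests were chosen with earlier results of these data known. Identifiers were named by the smallest p in each direction at a mean log2 CPM of 3 or more, over all stages, for the difference between stages and for falls in small follicles, with at most 2 higher and 2 lower. Planned lists of named genes and a test of granulosa markers needed symbols and were not run.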

Additional observations from a re-analysis of the deposited data

Results flagged for a closer look

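A single value stood apart from its group among 36 groups of oocytes tested over 9 measures, where chance alone flags about 1 group in 20. ENSBTAG00000040202 had 352 CPM in other large replicate 3, while the next highest of the 6 large others had 147 CPM and their median was 135. The other large oocyte belongs to 1 of the 3 pairs that share an identifier prefix with a healthy large oocyte, which had 202 CPM. No health contrast passed the edgeR test of a difference between stages.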

How the results depend on the processing

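The overall count of 0 called genes was also 0 in 13 of 14 alternatives and in each of the 27 fits that left out 1 oocyte. The exception was the unadjusted threshold with a fold change above 2, which gave 24 genes, and by stage 312, 28 and 107 genes in small, medium and large follicles, with 434 genes for the difference between stages at an unadjusted p under 0.05. DESeq2 gave 25, 0 and 1 genes by stage and 4 for the difference between stages. Without the 4 oocytes of fewest genes detected, edgeR called 1 lower gene in small follicles (adjusted p = 0.025), and the unadjusted counts with a fold change above 2 were 456, 123 and 194 by stage and 45 over all stages. Leaving out 1 oocyte at a time gave 0 in medium and large follicles and for the difference between stages. In small follicles it gave 0 to 1, the 1 being a higher gene found without other small replicate 4 (adjusted p = 0.00461). The causes were not tested. The fits without those 4 oocytes and with diameter, and the share of distance, were chosen after seeing the data. These 2 genes are not named, as the limit on identifiers was reached.

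Leaving out single oocytes moved the difference in genes detected between 1.88 and 639, that in similarity between 0.00254 and 0.0141, the share of distance between the sets from 12.2% to 15.9%, and the difference in log10 total count between -0.0232 and 0.0322, which turned its sign 5 times. No permutation p fell under 0.05 in these (lowest p of 0.0824). The other alternatives moved the difference in genes detected between 63.2 and 321 and kept each direction. The 4 named identifiers kept the sign of their log2 fold change in each alternative fitted, but they had been picked on these same oocytes. Over 12 alternatives the ranges were 0.29 to 1.02 for ENSBTAG00000016355 and -0.90 to -0.65 for ENSBTAG00000010581. The values of 0.29 and -0.65 came from the prefix fit, which rests on healthy oocytes of large follicles. Over 5 alternatives, none with a covariate, the ranges in small follicles were 2.10 to 2.27 for ENSBTAG00000040202 and -1.80 to -1.65 for ENSBTAG00000012485. DESeq2 in small follicles was the only alternative in which the last 2 passed the threshold. Filters left 13305, 14936, 16833 or 20610 genes. The alternatives of the granulosa marker test were not run. Over all stages, 2-fold differences in most genes under 3 in log2 CPM were not detectable.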
